A study of Mus musculus with 6 samples.

Results

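The Rab GTPases were read out of gene counts from sorted dysplastic stem cells of a mouse organoid line. The family was taken as every gene row whose symbol is Rab, a number, an optional letter and an optional digit, which gave 58 of 23420 genes. Of these, 47 had a mean of 1 CPM or more over the 6 libraries and are described by trafficking route. CPM here is the depth-scaled read count, a gene's reads over all reads assigned to genes in that library, scaled to the same total in each. The samples were DP-DSCs and TP-DSCs, 2 subpopulations of dysplastic stem cells isolated by flow cytometry from Meta4 organoids, with 3 polyA-selected RNA-seq libraries per group. The labels do not spell out DP and TP. What is known of the study gives them as CD133 and CD166 double positive cells and cells that also carry CD44v6. Both groups came from 1 organoid line, which limits them as a model, and the labels do not say whether each sample was its own culture. The p-values therefore reflect sample-to-sample spread that may be technical.

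Rab proteins are small GTPases that switch between a GTP-bound form on a membrane and a GDP-bound form in the cytosol. Exchange factors load GTP and recruit a Rab to its membrane, GTPase-activating proteins end the signal, and effectors such as motors, tethers and coiled-coil proteins do the transport work. In polarised epithelium, Rab proteins are known for sorting apical and basolateral cargo, recycling adhesion proteins and receptors, and releasing mucin and zymogen granules.

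Gene reads per library ranged from 17015581 to 32671039. Genes with at least 1 read numbered 12504 to 14434 in DP-DSC libraries, against 10571 to 10982 in TP-DSC libraries, and reads in no gene made up 14.1 to 15.4% and 16.2 to 20.3% of all reads in the same order. Of the 7 epithelial markers checked, all had reads, and their summed level was 8761 to 10587 CPM in DP-DSCs, against 8237 to 9702 CPM in TP-DSCs. Markers of leukocytes (6 genes) and endothelium (4 genes) had no reads in TP-DSCs and summed to at most 2.44 CPM in DP-DSCs. Markers of fibroblasts, smooth muscle, neurons and glia, and neuroendocrine cells (17 genes in all) summed to at most 3.19 CPM per list in DP-DSCs, against 7.41 in TP-DSCs, while Col1a2, Col3a1, Dcn, Lum and Sox10 had no reads in any library. The part of these differences in the Rab results was not tested.

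The family as a whole took a similar amount of each library. All Rab genes together summed to 3077, 3149 and 3004 CPM in DP-DSCs replicates 1, 2 and 3. They summed to 3111, 3067 and 2903 CPM in TP-DSCs replicates 1, 2 and 3, so the groups overlapped. Of the 58 genes, 52, 48 and 52 had reads in the DP-DSC libraries and 43, 43 and 41 in the TP-DSC libraries. This follows the smaller number of genes of any kind with reads in TP-DSCs given above. In bulk RNA, fewer cells with a transcript and less of it per cell cannot be told apart. Of the 47 genes of 1 CPM or more, 38 had reads in all 6 libraries. The lowest means inside that limit were 1.001 CPM for Rab26 and 1.24 for Rab30, and the highest outside it were 0.747 for Rab40b and 0.501 for Rab33a.

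**Figure D1:**
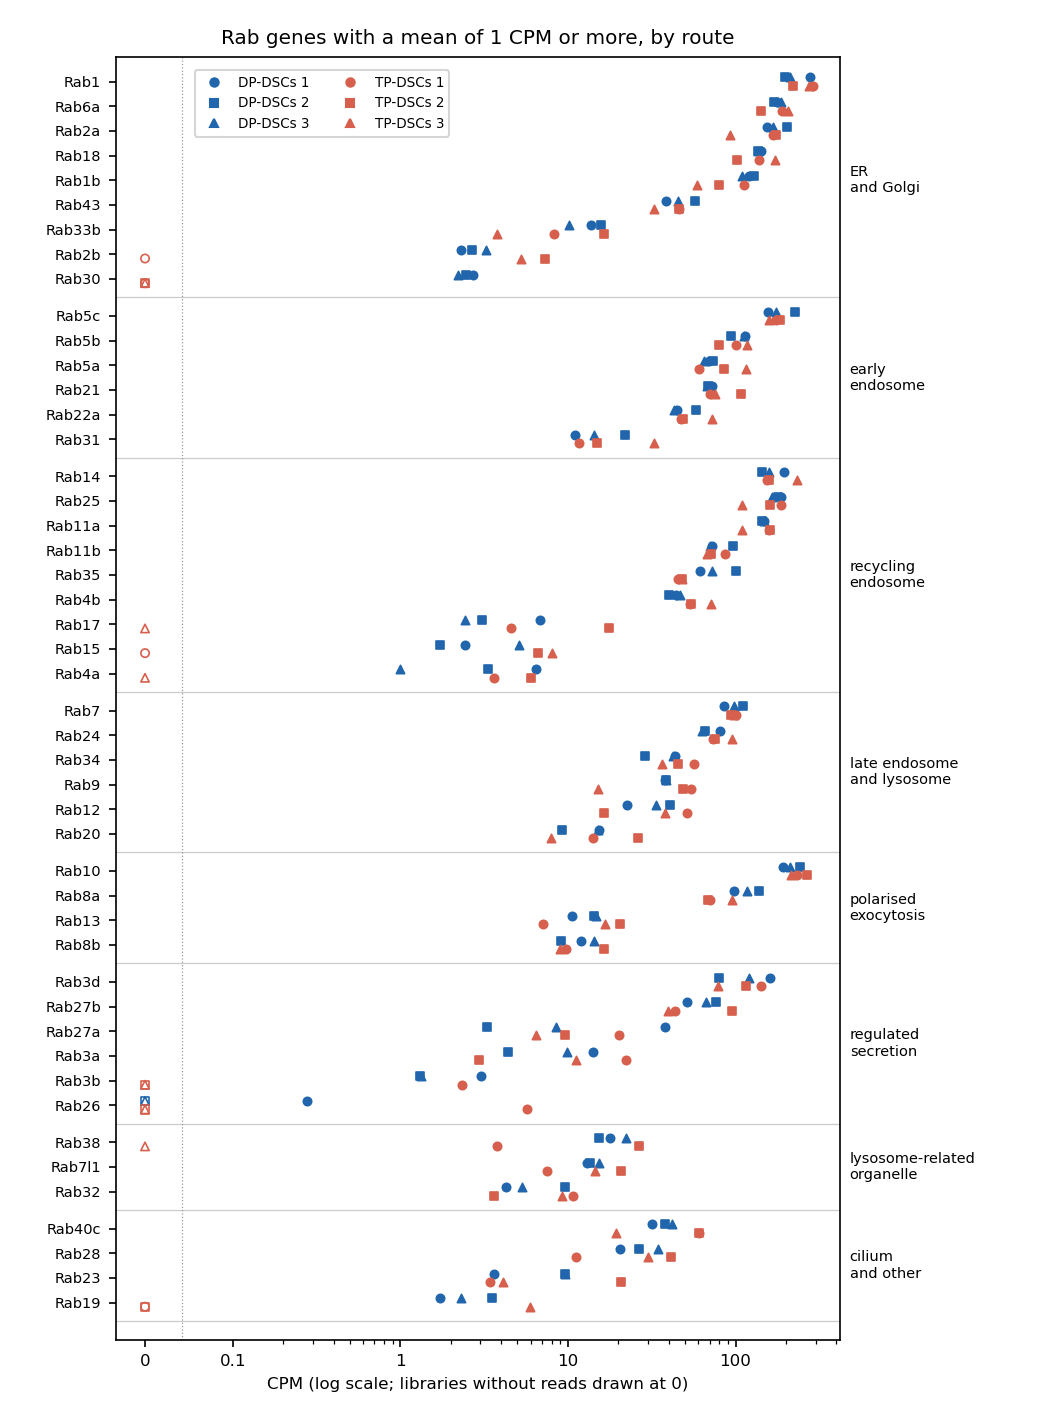
Level of each Rab gene with a mean of 1 CPM or more in each library, on a log axis in CPM, grouped by trafficking route, with DP-DSCs in blue, TP-DSCs in red, and libraries without reads drawn as open symbols at 0. The abundant members lie close together in all 6 libraries, while members of a few CPM scatter widely and 9 genes lack reads in at least 1 library.

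The early secretory Rab genes held the largest summed level, from 789 CPM in TP-DSCs replicate 2 to 951 CPM in TP-DSCs replicate 1. Rab1, the gene of Rab1A, which directs transport from the endoplasmic reticulum to the Golgi, stood at 276, 198 and 209.9 CPM in DP-DSCs and 289, 219 and 273 CPM in TP-DSCs. The groups overlapped. Its paralogue Rab1b stood at 119.8, 129 and 109.7 CPM in DP-DSCs and 113, 79.2 and 59.2 CPM in TP-DSCs. TP-DSCs replicate 1 lay within the DP-DSC range and the other TP-DSC libraries lay below it. Per kilobase of transcript, Rab1 made up 56.1 ± 5.02% (SD, n = 3) of the pair in DP-DSCs, against 68.1 ± 6.64% in TP-DSCs. This is a description of 2 genes that was not tested, and the pair was not among the planned isoform sets. Rab6a, which acts in traffic within and from the Golgi, had means of 178 ± 8.64 (DP-DSCs) and 179 ± 32.5 CPM (TP-DSCs), whereas its neuronal paralogue Rab6b averaged 0.188 CPM over all libraries. Rab2a, which tethers membranes between the Golgi and the endoplasmic reticulum, stood at 153, 203 and 167 CPM in DP-DSCs and 168, 175 and 92.1 CPM in TP-DSCs, with TP-DSCs replicate 3 alone below the rest. Rab18, known for the endoplasmic reticulum and lipid droplets, averaged 138 ± 3.08 and 138 ± 34.5 CPM in DP-DSCs and TP-DSCs. Rab43 and Rab33b, both Golgi proteins, were scarcer at 44.3 and 11.4 CPM over all libraries, and Rab2b and Rab30 had means of 3.48 and 1.24 CPM. Per kilobase, Rab1 led this route at 86.4 CPM per kilobase with the longest coding transcript as the length, and Rab2a led at 74.9 with the union of annotated exons.

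All 6 early endosome genes had reads in every library. Rab5 proteins drive fusion and maturation of early endosomes, and Rab5c was the most abundant of them. It stood at 155, 227 and 173 CPM in DP-DSCs and 174, 183 and 158 CPM in TP-DSCs, with overlap. Per kilobase, Rab5c made up 48.5 to 65.5% of the Rab5 group over the 6 libraries, Rab5a 17.7 to 29.4% and Rab5b 16.3 to 24.99%. The highest Rab5a share and the lowest Rab5c share came from the same library, TP-DSCs replicate 3. Rab5a itself stood at 69.1, 73.8 and 65.3 CPM in DP-DSCs and 60.8, 85.3 and 115 CPM in TP-DSCs, so that TP-DSCs replicate 1 lay below and the other TP-DSC libraries above every DP-DSC library. Rab5b averaged 107 ± 11.3 and 98.8 ± 18.2 CPM. Rab21, which sorts integrins on early endosomes, stood at 71.98, 68.7 and 67.8 CPM in DP-DSCs and 70.8, 107 and 75.7 CPM in TP-DSCs, with 1 high library, TP-DSCs replicate 2. Rab22a and Rab31, which belong to the same branch as Rab5, averaged 52.4 and 17.8 CPM over all libraries.

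The recycling route held the member with the highest level per length in the whole family. Rab25, an epithelial relative of Rab11 that acts at the apical recycling endosome, reached 152 CPM per kilobase over all libraries. In CPM it stood at 187, 179 and 165 in DP-DSCs and 187, 160.5 and 109.5 in TP-DSCs, with TP-DSCs replicate 3 the lowest. Rab11a, the broadly expressed recycling Rab, stood at 148, 144 and 148 CPM in DP-DSCs and 159, 159.6 and 109 CPM in TP-DSCs, where the same library was lowest. Rab11b stood at 71.9, 95.9 and 70.4 CPM in DP-DSCs and 86.6, 71.6 and 67.9 CPM in TP-DSCs, with overlap. Per kilobase, Rab25 made up 63.7 to 69.7% of this group in all 6 libraries, Rab11a 25.4 to 29.9% and Rab11b 4.74 to 6.98%. The order Rab25, Rab11a, Rab11b was therefore the same in each library, and the shares varied far less between libraries than those of the Rab27 pair described next to the secretory genes. Rab14, which links the Golgi and endosomes, averaged 174 CPM. Rab4b, for rapid recycling, exceeded its paralogue Rab4a, making up 89.1% or more of the pair per kilobase in every library. Rab17 and Rab15, a polarised epithelial and an endosomal Rab, averaged 5.75 and 3.99 CPM and each lacked reads in 1 TP-DSC library.

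**Figure D2:**
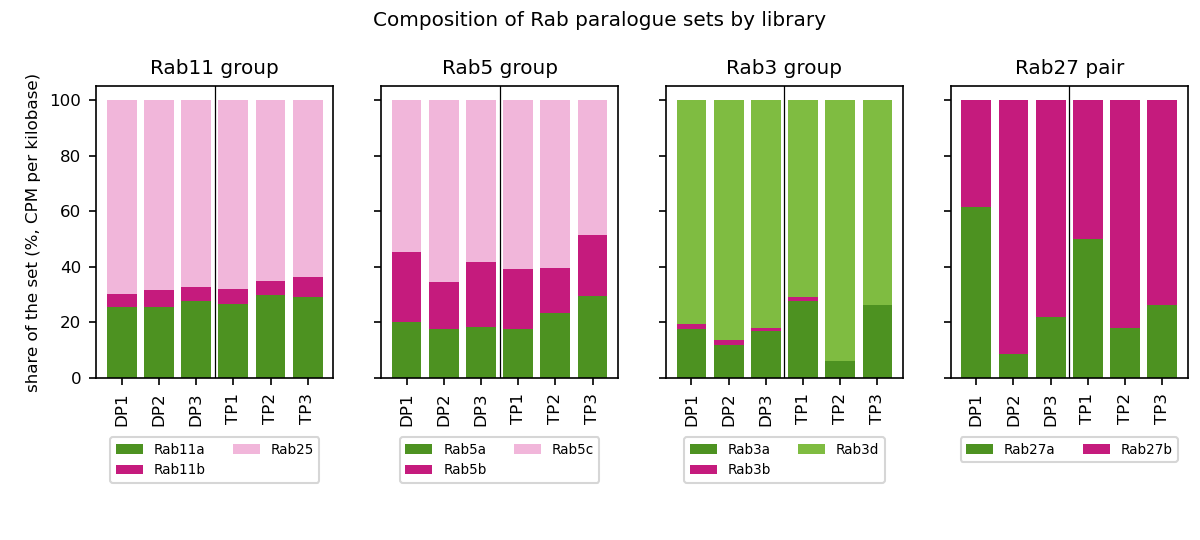
Share of each paralogue (%, from CPM per kilobase of transcript) in the Rab11, Rab5 and Rab3 groups and the Rab27 pair, 1 bar per library, with DP-DSC libraries left and TP-DSC libraries right of the line. Rab25 makes up 63.7 to 69.7% of its group throughout, while Rab27a ranges from 8.53 to 61.6% of its pair.

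Late endosome and lysosome genes were led by Rab7, which directs fusion with lysosomes. It stood at 85.05, 110.2 and 98.3 CPM in DP-DSCs and 100.3, 94.4 and 98.4 CPM in TP-DSCs. Its highest library was 1.30 times its lowest, the smallest such ratio among the 22 Rab genes of 50 CPM or more. Rab24, linked to autophagy, stood at 80.4, 65.7 and 63.4 CPM in DP-DSCs and 73.1, 74.99 and 94.9 CPM in TP-DSCs, with overlap. Rab24 led the route per kilobase at 64.6, while with the union of exons Rab7 led at 37.5, just ahead of Rab24 at 37.4. In the annotation, 62.4% of the exon bases of Rab24 are covered by genes on the opposite strand, mainly Prelid1. The strand setting of the counting is not given in the sources used here, so the value of Rab24 is uncertain. The same applies to Rab2b at 64%, mainly Gm43766, and at smaller shares to other members, such as Rab20 (25.6%) and Rab6a (19%). Rab9, which returns receptors from late endosomes to the Golgi, stood at 38.1, 38.6 and 38.7 CPM in DP-DSCs and 54.2, 48.9 and 15.1 CPM in TP-DSCs. The DP-DSC libraries were nearly equal and the TP-DSC libraries lay on both sides of them. Rab34, Rab12 and Rab20 averaged 42.1, 33.7 and 14.7 CPM over all libraries. Rab9b and Rab39b had no reads in any library, Rab39 had 1 read and Rab36 had 6 reads in all libraries together.

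Rab10 and Rab8a carried most of the polarised exocytosis route. Rab10, which acts in basolateral transport, stood at 192, 241 and 211 CPM in DP-DSCs and 232, 267 and 213 CPM in TP-DSCs, with overlap, and led the route at 64.3 CPM per kilobase. Rab8a, which carries vesicles to the apical membrane and the primary cilium, averaged 97.8 CPM over all libraries. Per kilobase, Rab8a made up 81.3 to 93.97% of the pair with Rab8b. Rab13, a Rab of tight junctions, averaged 13.9 CPM.

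Regulated secretion genes summed to 135 to 268 CPM. Rab3d, which coats zymogen granules of gastric chief cells and other exocrine cells, stood at 160.5, 79.8 and 121 CPM in DP-DSCs and 142, 116 and 78.3 CPM in TP-DSCs. Per kilobase it made up 70.9 to 94.03% of the Rab3 group. Rab3a, the synaptic vesicle Rab, averaged 10.8 CPM, Rab3b 1.34 CPM, and Rab3c had no reads. Rab27b, which docks secretory granules, stood at 51.5, 76.4 and 66.6 CPM in DP-DSCs and 43.5, 95.9 and 39.5 CPM in TP-DSCs. Rab27a stood at 38.04, 3.28 and 8.55 CPM in DP-DSCs and 20.2, 9.64 and 6.47 CPM in TP-DSCs. The highest Rab27a library was 11.6 times the lowest, the widest range among Rab genes of 10 to 50 CPM with reads in all 6 libraries. Rab26, a Rab of secretory granule maturation, stood at 5.73 CPM in TP-DSCs replicate 1, at 0.276 CPM in DP-DSCs replicate 1 and had no reads in the other libraries. Rab37 averaged 0.124 CPM.

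The high Rab27a libraries shared a number in their names. Library names carry the number 3840 (1 library of each group) or 4140 (2 of each), which the labels do not explain. Rab27a averaged 29.1 CPM in the libraries named 3840 and 6.98 CPM in those named 4140, and each library named 3840 lay above all of those named 4140. In edgeR's quasi-likelihood test with the group as a further term, Rab27a (log2 difference of 4140 against 3840 of -2.17 ± 0.73, SE), Rab3d (-0.74 ± 0.27) and Rab1 (-0.47 ± 0.17) had an unadjusted p under 0.05, namely 0.0233, 0.0286 and 0.0302. That is 3 of 47 Rab genes tested, against 9.30% of all genes tested, and 0 passed after adjustment over all genes (adjusted p of 0.459, 0.483 and 0.4898 in edgeR). This comparison was chosen after the values were seen.

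Genes of lysosome-related organelles and of the cilium were scarce. Rab38 and Rab32, which deliver enzymes to pigment and platelet granules, averaged 14.3 and 7.15 CPM. Rab38 stood at 17.9, 15.4 and 22.2 CPM in DP-DSCs and 3.77, 26.6 and 0 CPM in TP-DSCs, which is both the highest and the lowest library in 1 group. In TP-DSCs replicate 3, which had no reads of Rab38, 3 reads would be 0.0966 CPM, a limit that covers counting error only, since reads are not independent molecules. Rab7l1, known as Rab29 and linked to the Golgi and lysosomes, led this route at 11.5 CPM per kilobase, with 12.9, 13.5 and 15.2 CPM in DP-DSCs and 7.45, 20.7 and 14.6 CPM in TP-DSCs. Rab40c, a Rab with a domain that recruits a ubiquitin ligase, stood at 31.8, 37.95 and 41.5 CPM in DP-DSCs and 60.7, 60.3 and 19.3 CPM in TP-DSCs. Its paralogue Rab40b averaged 0.747 CPM. Rab28 and Rab23, both of the cilium, averaged 27.3 and 8.52 CPM, and Rab19 2.24 CPM. Rab33a and Rab42 averaged 0.501 and 0.125 CPM, each with reads in 2 of the 6 libraries, both of them DP-DSCs. Rab44 had no reads.

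The design sets TP-DSCs against DP-DSCs, and each Rab gene was read from that fit. Of 47 Rab genes tested, 0 passed an adjusted p of 0.05 in edgeR's quasi-likelihood test with Benjamini-Hochberg adjustment over all 11925 genes tested, and 0% of all genes did. By limma-voom 0 of 47 passed as well, as did 0% of all genes. DESeq2 on the same genes called 0 Rab genes, against 0.804% of all genes with an adjusted p. DESeq2 without the count filter called 1, Rab30, against 1.86% of all genes with an adjusted p in that fit. At an unadjusted p under 0.05 in edgeR, 4 Rab genes were lower in TP-DSCs and 0 higher. Of all tested genes 6.10% had such a p, with 4.67% lower and 1.43% higher. These 4 were Rab30, Rab40b, Rab35 and Rab8a. Rab30 and Rab40b had no reads in TP-DSCs, so they passed the count filter through DP-DSCs alone and could only come out lower. Over the 46 tested genes of 1 CPM or more, 21 had a positive and 25 a negative log2 fold change (TP-DSCs over DP-DSCs), with a median of -0.01 beside -0.02 over all tested genes. Of these 46 genes, 3 had TP-DSC values all below the lowest DP-DSC value and 1 had them all above the highest, while 8.56% and 3.87% of all tested genes did.

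**Figure D3:**
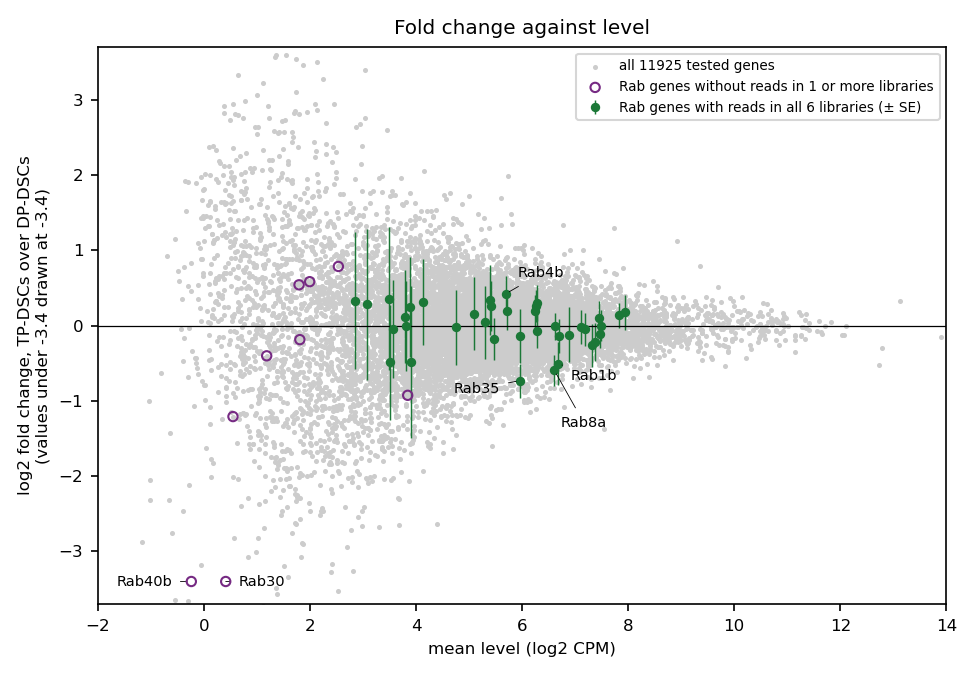
Log2 fold change of TP-DSCs over DP-DSCs against mean level (log2 CPM) from edgeR, with all tested genes in grey, Rab genes with reads in all 6 libraries in green with their SE, and Rab genes lacking reads in at least 1 library as open purple circles. Rab30 and Rab40b lie below the plotted range and are drawn near its lower edge, and 425 tested genes fall outside the range. The green points lie within -0.73 to 0.42.

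Rab35 had the smallest p among the members with reads in all 6 libraries. Rab35 recycles cargo from endosomes to the plasma membrane and takes part in cytokinesis and in placing apical proteins at the first lumen of epithelial cysts. It stood at 61.3, 101 and 72.1 CPM in DP-DSCs and 45.6, 47.96 and 47.7 CPM in TP-DSCs. The TP-DSC libraries were nearly equal and all lay below the lowest DP-DSC library. The log2 fold change was -0.73 ± 0.23 (SE), with an unadjusted p of 0.0135 and an adjusted p of 0.349 in edgeR. Within the pair of libraries named 3840 the difference of mean log2 CPM was -0.43, and within the 4 named 4140 it was -0.83.

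Rab8a came next. It stood at 97.3, 137 and 117 CPM in DP-DSCs and 70.1, 68.9 and 95.7 CPM in TP-DSCs. The highest TP-DSC library, replicate 3, lay just below the lowest DP-DSC library, replicate 1. The log2 fold change was -0.60 ± 0.20 (SE), with an unadjusted p of 0.0208 and an adjusted p of 0.489 in edgeR. The difference was -0.47 in the pair named 3840 and -0.64 in those named 4140. Its paralogue Rab8b averaged 11.8 ± 2.57 and 11.7 ± 4.14 CPM (SD, n = 3), with overlap. In the annotation of mm10 (GRCm38), Rab8a lies on chromosome 8 from 72161200 to 72183904 and Rab35 on chromosome 5 from 115631908 to 115647736, and no other gene overlaps the exons of either.

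The windows before the start sites of Rab35, Rab8a and Rab25 are shown because the first pair had the smallest p among members with reads throughout and Rab25 the highest level per length. They are the 250 bases upstream of the RefSeq start on GRCm38.p6, written 5′ to 3′ on the gene's strand, with every CG dinucleotide in capitals. Rab35 lies on the plus strand (chr5:115631737-115631986), Rab8a on the plus strand (chr8:72160950-72161199) and Rab25 on the minus strand (chr3:88548280-88548529). The GENCODE starts of Rab35 (115631908) and Rab25 (88548300) lie inside these windows. Part of each of these windows, and of its CG count, therefore falls within the gene in that annotation.
Rab35: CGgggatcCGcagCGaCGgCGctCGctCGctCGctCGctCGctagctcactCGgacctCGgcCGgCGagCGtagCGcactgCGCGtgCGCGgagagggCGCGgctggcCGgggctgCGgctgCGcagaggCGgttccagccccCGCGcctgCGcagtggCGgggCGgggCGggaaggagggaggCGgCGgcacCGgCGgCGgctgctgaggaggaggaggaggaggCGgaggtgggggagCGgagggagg
Rab8a: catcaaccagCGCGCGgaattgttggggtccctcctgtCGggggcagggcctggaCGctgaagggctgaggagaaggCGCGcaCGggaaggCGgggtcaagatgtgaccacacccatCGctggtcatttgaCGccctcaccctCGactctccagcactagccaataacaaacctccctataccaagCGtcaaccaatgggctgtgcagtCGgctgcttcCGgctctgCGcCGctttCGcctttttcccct
Rab25: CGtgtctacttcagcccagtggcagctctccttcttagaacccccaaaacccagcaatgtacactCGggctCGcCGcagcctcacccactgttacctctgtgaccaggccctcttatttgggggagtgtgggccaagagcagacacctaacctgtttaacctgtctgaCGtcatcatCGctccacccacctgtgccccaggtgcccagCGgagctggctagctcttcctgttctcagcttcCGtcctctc
The windows hold 39, 18 and 8 CG dinucleotides for Rab35, Rab8a and Rab25. Windows were matched for 48 of the 58 Rab genes, with a median of 16 CG dinucleotides against 6 over the 27025 genes with a window. The latter were not matched to the Rab genes for level in these libraries. By level, the median was 21 for 19 Rab genes of 50 CPM or more, 12 for 21 of 1 to 50 CPM and 9.5 for 8 under 1 CPM. The ranges overlapped, since Rab25 held 8 at a high level and Rab6b held 40 at 0.188 CPM. The letters CACGTG, a motif that reads the same on both strands and is the core of the element bound by the TFEB family, lay in the windows of Rab5a, Rab20, Rab21 and Rab23, or 8.33% of Rab windows against 6.04% of all.

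Rab30 and Rab40b were without reads throughout TP-DSCs. Rab30, a Golgi Rab, stood at 2.73, 2.48 and 2.22 CPM in DP-DSCs, from 89, 81 and 60 reads. Against a floor of 3 reads over the TP-DSC libraries together (0.0411 CPM), its reads were at least 60.3-fold lower in TP-DSCs, which covers counting error only. Its adjusted p was 0.121 in edgeR and 0.0685 in DESeq2, and 0.00467 in DESeq2 without the count filter. Absence was common at this level. Of 598 genes with reads in all DP-DSC libraries and a DP-DSC mean of 2 to 4 CPM, 19.6% lacked reads in every TP-DSC library, and so did 1 of the 5 Rab genes among them. Rab40b stood at 2.49, 0.704 and 1.29 CPM in DP-DSCs, from 81, 23 and 35 reads, at least 36.4-fold above the same floor, with an adjusted p of 0.121 in edgeR and 0.335 in DESeq2. At a DP-DSC mean of 1 to 2 CPM, 45.2% of 502 such genes lacked reads in every TP-DSC library.

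In the upward direction the smallest p belonged to Rab4b. It stood at 44.1, 40.3 and 46.6 CPM in DP-DSCs and 53.4, 53.9 and 71.04 CPM in TP-DSCs. Every TP-DSC library lay above every DP-DSC library, with a log2 fold change of 0.42 ± 0.23 (SE), an unadjusted p of 0.112 and an adjusted p of 0.999 in edgeR. The exons of Rab4b share 65% of their bases with the annotated gene Gm21983 on the same strand, so how its reads were assigned is uncertain. Rab5a, Rab21, Rab24 and Rab34 followed, with log2 fold changes of 0.30, 0.26, 0.19 and 0.26, unadjusted p of 0.247, 0.268, 0.411 and 0.456, and overlapping groups. Each of these values moved with single libraries. Rab5a was 0.081 without TP-DSCs replicate 3 and Rab21 0.085 without TP-DSCs replicate 2. Rab24 ranged from 0.096 without TP-DSCs replicate 3 to 0.31 without DP-DSCs replicate 1, and Rab34 from 0.0051 without TP-DSCs replicate 1 to 0.43 without TP-DSCs replicate 3. Downward, Rab1b had a log2 fold change of -0.51 ± 0.29 (SE), an unadjusted p of 0.123 and an adjusted p of 0.999 in edgeR. Its difference was -0.09 in the pair named 3840 and -0.80 in the libraries named 4140, and its fold change ranged from -0.87 without TP-DSCs replicate 1 to -0.28 without TP-DSCs replicate 3.

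**Figure D4:**
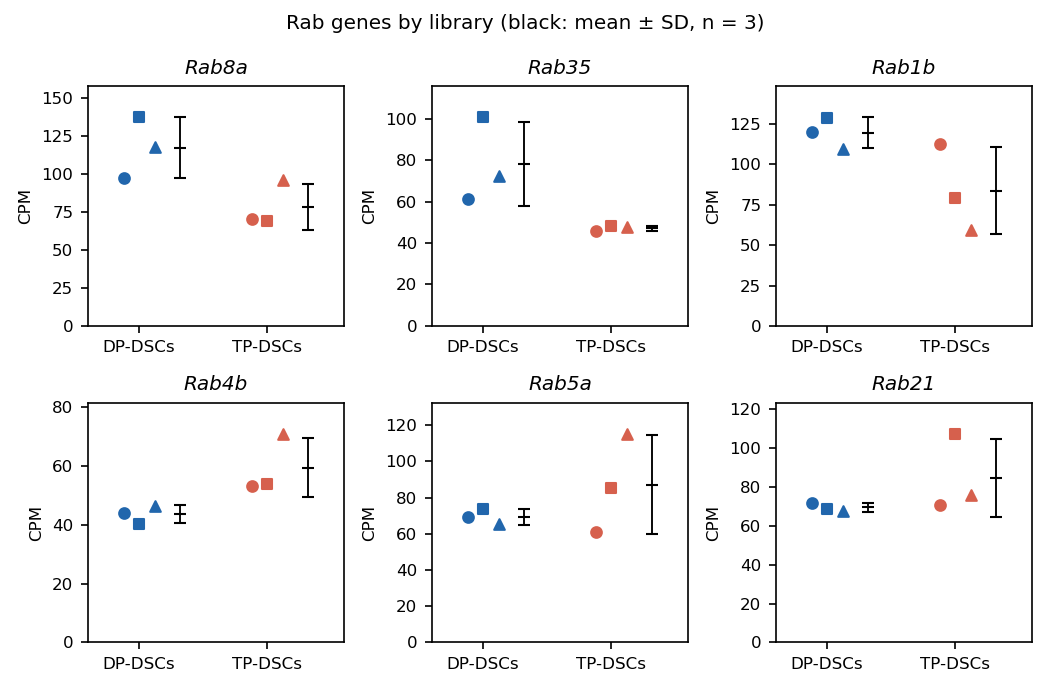
CPM of 6 Rab genes in each library (circle, square and triangle for replicates 1, 2 and 3), with the mean ± SD of 3 libraries in black. Rab8a and Rab35 have all TP-DSC points below the DP-DSC points and Rab4b has them above, while Rab1b, Rab5a and Rab21 overlap.

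By route, the medians of the log2 fold change lay close to 0. The median was 0.22 over 6 early endosome genes, 0.17 over 6 late endosome and lysosome genes, and 0.13 over 4 genes of the cilium and other sites. It was 0.03 over 4 polarised exocytosis genes, -0.01 over 3 genes of lysosome-related organelles, -0.05 over 9 recycling genes, -0.14 over 5 regulated secretion genes and -0.17 over 9 genes of the endoplasmic reticulum and Golgi. No route held a called gene in edgeR. The spread between libraries was smaller in abundant members. Over the 22 Rab genes of 50 CPM or more, the highest library was 1.30 to 2.43 times the lowest, with a median of 1.64, where the median was 1.91 over all genes of 50 to 250 CPM. Over 14 Rab genes of 10 to 50 CPM with reads in all libraries the median was 3.14, against 2.86 over all such genes. Among 10 Rab genes of 1 to 10 CPM, 2 had reads in all 6 libraries.

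The genes that prenylate, load, switch off and follow Rab proteins were read from the same fit. Of 118 such genes, 112 were tested and 0 passed in edgeR, with 55 above and 57 below 0 and a median of -0.01. At an unadjusted p under 0.05, 3 of the 112 were lower (Dennd1c, Dennd2a and Mon1b) and 0 higher, where 4.67% and 1.43% of all tested genes were. Dennd1c and Dennd2a had no reads in TP-DSCs, so they passed the count filter through DP-DSCs alone and could only come out lower. Of the 112 genes, 11 had TP-DSC values all below the DP-DSC values and 2 had them all above, to be read against the 8.56% and 3.87% of all tested genes given above. DESeq2 called 1 of them, Dennd2a, with an adjusted p of 0.00678, against 0.804% of all genes with an adjusted p by the same tool.

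Among 7 genes of prenylation and membrane extraction, 4 were above and 3 below 0. Gdi2, which extracts GDP-bound Rab proteins from membranes, was abundant at 448 ± 14.2 (DP-DSCs) and 412 ± 33.7 CPM (TP-DSCs; SD, n = 3). Chm, the escort protein REP1 that presents new Rab proteins for prenylation, stood at 19.1, 21.2 and 25.7 CPM in DP-DSCs and 4.41, 8.11 and 30.8 CPM in TP-DSCs. Its paralogue Chml stood at 27.8, 27.5 and 23.5 CPM in DP-DSCs and 17.4, 34.4 and 50.1 CPM in TP-DSCs. In both genes the TP-DSC libraries lay on both sides of the DP-DSC libraries. Rabggtb, a subunit of the prenylating enzyme, averaged 137 ± 32.4 and 179.6 ± 37.2 CPM. Rabif, a Rab-binding chaperone, stood at 34.6, 39.7 and 36.6 CPM in DP-DSCs and 29.4, 18.2 and 23.4 CPM in TP-DSCs, without overlap (log2 fold change -0.64, edgeR adjusted p of 0.999).

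Of 31 exchange factors tested, 17 were above and 14 below 0, with TP-DSC values all below the DP-DSC values in 5 and all above in 1, against 8.56% and 3.87% of all tested genes. Mon1a and Mon1b pair with Ccz1 in the complex that activates Rab7. Mon1b stood at 31.5, 41.96 and 35.3 CPM in DP-DSCs and 16.7, 19.6 and 24.4 CPM in TP-DSCs. Its log2 fold change was -0.86 ± 0.32 (SE) with an edgeR adjusted p of 0.639. Mon1a stood at 45.4, 45.8 and 39.1 CPM in DP-DSCs and 34.1, 21.6 and 19.2 CPM in TP-DSCs. Its log2 fold change was -0.79 ± 0.36 (SE) with an edgeR adjusted p of 0.885. Neither passed, and in both the groups did not overlap. Ccz1, chosen after its values were seen, overlapped at 76.2 ± 11.3 and 72.0 ± 17.6 CPM, as did Rab7 itself. Dennd1c, an exchange factor of Rab35, and Dennd2a, one of Rab9, had no reads in TP-DSCs. Dennd1c averaged 0.6798 ± 0.192 CPM in DP-DSCs, and Dennd2a stood at 0.9204, 3.64 and 9.62 CPM there, a mean of 4.73. Of genes with reads in all DP-DSC libraries, 45.2% at a DP-DSC mean of 1 to 2 CPM lacked reads in every TP-DSC library. At 4 to 8 CPM, the level of Dennd2a, 4.24% of 801 genes did. Dennd1c lay below both levels.

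Of 34 GTPase-activating proteins tested, 15 were above and 19 below 0, with 0 called in edgeR. TP-DSC values lay all below the DP-DSC values in 4 and all above in 1, where 8.56% and 3.87% of all tested genes did. Rab3gap2, a subunit of the complex that acts on Rab3 and Rab18, averaged 70.6 ± 7.43 (DP-DSCs) and 46.5 ± 13.8 CPM (TP-DSCs), and its adjusted p in edgeR was 0.999. Sgsm3 averaged 111 ± 13.4 and 79.3 ± 18.8 CPM, Tbc1d9b 80.5 ± 7.43 and 55.4 ± 16.5 CPM, and Tbc1d8b 36.2 ± 7.097 and 57.4 ± 11.6 CPM. Of these 4, named because they had the smallest p of the list, Tbc1d9b overlapped between the groups. Of 40 effectors tested, 19 were above and 21 below 0. TP-DSC values lay all below the DP-DSC values in 1 of the 40 and all above in 0. The shares over all tested genes were 8.56% and 3.87%. Rab11fip1, which ties Rab11 and Rab25 to recycling vesicles, averaged 108 ± 28.3 and 99.8 ± 10.3 CPM, and Myo5b, the motor of apical recycling endosomes, 88.6 ± 9.16 and 97.1 ± 18.04 CPM. Eea1, the tether that binds Rab5, averaged 53.5 ± 15.4 and 70.03 ± 31.1 CPM. Vps39, a subunit of the complex that tethers membranes with Rab7, averaged 47.5 ± 7.63 and 63.1 ± 7.23 CPM, Bicd2, which links Rab6 vesicles to dynein, 63.5 ± 18.2 and 86.2 ± 26.4 CPM, and the Golgi tether Gcc2 57.6 ± 23.8 and 91.6 ± 30.6 CPM. The Rab27 effectors Sytl2 and Sytl5 averaged 14.8 ± 11.6 and 15.2 ± 6.46 CPM in DP-DSCs and 34.2 ± 27.1 and 29.6 ± 16.1 CPM in TP-DSCs. All of these named effectors overlapped between the groups, and their adjusted p was 0.999 in edgeR.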

How the data were processed

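Stranded libraries of polyadenylated RNA were sequenced for 3 samples of each group, per the labels' protocols. Each deposited file holds 1 sample's raw read count per gene symbol. The submitters' processing notes name STAR 2.7.3a, Partek and DESeq2 3.5 with build mm10, without roles. The read counter, the annotation and the strand setting: not given in the sources used here, so overlapping genes and near-identical copies may have gained or lost reads. Of 50-base stretches of the longest coding transcript, 14.5% of Rab7, 13% of Rab5b and 9.75% of Rab11b also occur in other genes, mainly pseudogenes, and 90.3% of Rab43 and 80.3% of Rab4b in overlapping gene models.

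The rows for reads in no gene and ambiguous reads (1.09 to 1.86% of reads) were left out of library sizes. The test used edgeR 4.0.16 in R 4.3.3, with filterByExpr (minimum count 10, total 15), trimmed mean of M values (TMM) scaling, a quasi-likelihood model of group, and Benjamini-Hochberg adjustment over all genes at 0.05. The SE comes from the fold change and its F statistic. Printed CPM use gene reads alone. Differences within library names are of log2 CPM means (prior count 2). The test was tested on simulated data, but the outcome is not given and no result here rests on it. The common biological coefficient of variation, the relative spread between libraries of a group, was 0.75. How small a difference could be called at this spread was not tested. Replicates of a group differed by more than counting noise (chi-square per degree of freedom of 115 to 307), so none was treated as a library deposited more than 1 time, which does not show that they were separate cultures. Replicate numbers follow deposit order.

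Alternatives were other scalings, DESeq2 1.42.0, limma-voom (3.58.1), other filters, the library name number as a block, 4140 alone and leaving out each library. DESeq2 without the count filter and the exon-union length were added after seeing the data. Transcript lengths and coordinates came from GENCODE M21 (GRCm38) for all 58 genes, with Rab1 and Rab7l1 matched as Rab1a and Rab29, and promoters from RefSeq (GRCm38.p6). Named genes were the 5 Rab genes with the smallest p per direction, the leader of each route per kilobase, fixed isoform sets, and up to 4 regulators per list by p with 6 fixed ones; other members are given by mean or range. The members and lists were chosen with earlier results of these data known.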

Additional observations from a re-analysis of the deposited data

How the results depend on the processing

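No Rab gene passed in edgeR under any scaling, filter, block or omission of a library tried, nor in limma-voom or in DESeq2 on the same genes. DESeq2 called 93 genes in all and 1 regulator (Dennd2a). DESeq2 without the count filter took in 15176 genes and gave 14318 of them an adjusted p. It called 267 genes, 1 Rab gene (Rab30, adjusted p of 0.00467) and 1 regulator. The cause was not tested. For the 10 Rab genes named by p, the direction was the same in 160 of 160 alternative fits, and 1 of these, that of Rab30, passed the threshold. Rab30 and Rab40b had no reads in TP-DSCs, so their direction could not change, and the same holds for the regulators Dennd1c and Dennd2a. The other named Rab genes, regulators and effectors were picked by p from these same libraries. Agreement in direction between such fits is therefore largely built in and is not independent support. Rab35 ranged from -0.91 to -0.57 and Rab8a from -0.73 to -0.49 (log2). Both had their highest value in DP-DSCs replicate 2. Without that library Rab35 was -0.57 and Rab8a -0.52, with adjusted p of 0.9565 and 0.9999 in edgeR. At an unadjusted p under 0.05 edgeR placed 2 to 6 Rab genes when 1 library was left out. The fewest, 2 of 47 without DP-DSCs replicate 2, stood beside 701 of 12152 genes of any kind. Without TP-DSCs replicate 1 there were 6 of 48, beside 1811 of 12513. Without TP-DSCs replicate 3 there were also 6 of 48, beside 1410 of 12423. The libraries named 4140 alone gave 7 of 48, beside 1473 of 12066. For 16 named regulators and effectors the direction held in 255 of 256 fits; Chml, 0.33 with all libraries, was -0.031 without TP-DSCs replicate 3, 0.60 without TP-DSCs replicate 1 and 0.67 in the libraries named 4140 alone. The Rab median stayed between -0.11 and 0.04 over all alternatives, within the spread between libraries of 0.12. The library name number could be fitted as a block, which is not a pairing of samples, and 0 Rab genes were then called. A minimum of 5 CPM left 40 Rab genes, and TMM-scaled CPM kept 47 at the minimum of 1 CPM. No paired analysis was possible because the labels give no replicate number, and those used here follow deposit order and tie no sample to another. Across libraries, 3 reads correspond to 0.0918 to 0.176 CPM, under the minimum of 1 CPM used here. Of 10 members of 1 to 10 CPM, 2 had reads in all 6 libraries, and the cause was not tested.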
